A study of Gallus gallus with 6 samples.

Results

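The 10 genes described here are components, receptors and regulators of the complement system, measured in ovarian cancer cells of the chicken sorted by aldehyde dehydrogenase (ALDH) activity. The members were C1QA, C1QB, C1QC, C1R, C1S, C3, C3AR1, C5, C7 and CFI. They were taken by the gene name that the deposited comparison table gives to each transcript. Each of the 10 names belonged to 1 gene ID, out of 16963 gene IDs in all, and together they had 16 transcripts. All 10 passed the filter on low counts and were among the 12811 genes tested.

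The cells, called COVCAR, were ovarian adenocarcinoma cells from the ascites of chickens that had this cancer, in 3 primary lines named C27, C29 and C30. Each line was grown to confluence on gelatinized flasks, dissociated with trypsin and sorted by flow cytometry for ALDH activity, which is often used to enrich stem-like tumour cells. There were 3 ALDH+ and 3 ALDH- libraries, 1 of each fraction per line, and where values of 3 libraries are given they stand in the order C27, C29, C30. The labels do not state the birds' strain or age and name no drug or genetic change, and a line is the only unit of replication. Total estimated counts were 22170788 to 26747453 in ALDH+ libraries and 22926423 to 25383715 in ALDH- libraries.

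Complement is a cascade of plasma proteins that marks microbes and cell debris for uptake. C1q, built from the products of C1QA, C1QB and C1QC, recognises a target, and the bound proteases C1r and C1s then start the classical pathway. All pathways meet at C3, whose cleavage gives an opsonin and a small peptide sensed by the receptor C3AR1. Factor I (CFI) inactivates the opsonin, C5 opens the terminal pathway, and C7 is part of the pore that ends it. In mammals the liver makes most circulating components, macrophages are a main source of C1q, and fibroblasts can secrete C1r and C1s.

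Markers of other cells were read first, because a culture from ascites can hold several cell types. In edgeR without the line block, 13 of 15 tested macrophage and monocyte markers fell in ALDH+ cells (adjusted p under 0.05). Over all genes tested, 5.3% fell and 0.835% rose by the same rule. All 15 markers had a log2 change below 0. Their median log2 change was -4.70, against 0.00 over all genes tested. Their summed level was 224 to 436 CPM in ALDH+ libraries and 5263 to 10568 CPM in ALDH- libraries. CPM is the count relative to library size, scaled here with TMM factors. Among the defining markers, SPI1, the myeloid transcription factor, stood at 6.58 to 10.5 CPM in ALDH+ and 194 to 375 CPM in ALDH- libraries. CSF1R, the receptor of a macrophage growth factor, stood at 9.25 to 29.3 CPM in ALDH+ and 295 to 650 CPM in ALDH- libraries. PTPRC, the pan-leukocyte antigen, stood at 8.45 to 29.2 CPM in ALDH+ and 117 to 208 CPM in ALDH- libraries. The 12 fibroblast markers had a median log2 change of 0.81, with 0 called in edgeR without the line block, 4 at an unadjusted p under 0.05 and 2 called in DESeq2. COL1A1, a collagen gene and the most abundant of them, stood at 10915 to 22045 CPM in ALDH+ and 8904 to 17093 CPM in ALDH- libraries. PDGFRA, a growth factor receptor of fibroblasts, stood at 38.9 to 72 CPM in ALDH+ and 14.6 to 44.2 CPM in ALDH- libraries. With the line as a block in edgeR, 4 fibroblast markers rose, against 5.92% of all genes tested. Of 6 tested epithelial and ovarian carcinoma markers, 1 fell in edgeR without the block, and 1 fell and 2 rose with it. With the block, 7.6% of all genes tested fell and 5.92% rose. EPCAM, a defining epithelial marker, was near 0 in both fractions, at 0.302 to 1.82 CPM in ALDH+ and 0.0379 to 1.74 CPM in ALDH- libraries. CDH1, the epithelial cadherin and the 1 that fell, was at 0.738 to 1.53 CPM in ALDH+ and 3.99 to 49.5 CPM in ALDH- libraries. Its call (log2 -4.08, edgeR adjusted p = 0.0471) was kept in 2 of 6 fits with 1 library left out (adjusted p up to 0.15). KRT7, another epithelial marker, was at 1078 to 2940 CPM in ALDH+ and 629 to 2294 CPM in ALDH- libraries. KRT18, a keratin gene, was at 59 to 157 CPM in ALDH+ and 36.3 to 47.2 CPM in ALDH- libraries, and rose with the line block (1.25, edgeR adjusted p = 0.0224). WT1, a transcription factor gene, was at 13.8 to 71.6 CPM in ALDH+ and 5.63 to 41.7 CPM in ALDH- libraries, and also rose with the block (1.5, adjusted p = 0.0331). Of 5 endothelial markers PECAM1 was the one tested and fell by 2.98, and CDH5, a defining one, was at 0 to 0.705 CPM in ALDH+ and 0 to 0.229 CPM in ALDH- libraries. Of 5 tested lymphocyte markers, 2 fell, and PAX5, a defining B cell marker, had 0 counts in all 6 libraries. ALB, the defining hepatocyte marker, was at 0.727 to 1.34 CPM in ALDH+ and 0.505 to 0.909 CPM in ALDH- libraries. APOA1, an apolipoprotein gene of the same list, was high in both fractions, at 440 to 9805 CPM in ALDH+ and 1224 to 8891 CPM in ALDH- libraries. TTR, the transthyretin gene, was at 4.97 to 7.79 CPM in ALDH+ and 1.3 to 3.49 CPM in ALDH- libraries with no overlap, and it did not pass in edgeR (log2 1.62, adjusted p = 0.0997). None of the 5 tested hepatocyte markers passed in edgeR with or without the line block, and TTR was the 1 at an unadjusted p under 0.05.

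The complement genes did not move as one group. The 3 C1q genes, C3 and the receptor gene C3AR1 fell in ALDH+ cells, while the protease genes C1R and C1S and the pore gene C7 had positive log2 changes and C5 and CFI differed little. In edgeR's quasi-likelihood test without the line as a block, 5 of 10 members were lower and 0 higher (adjusted p under 0.05). Over all genes tested, 6.14% were called by the same rule, 5.3% lower and 0.835% higher. At an unadjusted p under 0.05, 1 member was higher, C1S, which DESeq2 called. With the line as a block, 5 members were lower and 2 higher, C1S and C7, against 7.6% and 5.92% of all genes, or 13.5% in either direction. The members were chosen with earlier results of these data known, so these counts describe the 10 genes and are no sample of the pathway. In the values of the libraries themselves, 5 members lay wholly lower in ALDH+ and 1 wholly higher, with no overlap between the groups, against 14.6% and 11.2% of all genes, or 25.8% in either direction. In bulk RNA, fewer cells of a type and less RNA per cell cannot be told apart.

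**Figure D1:**
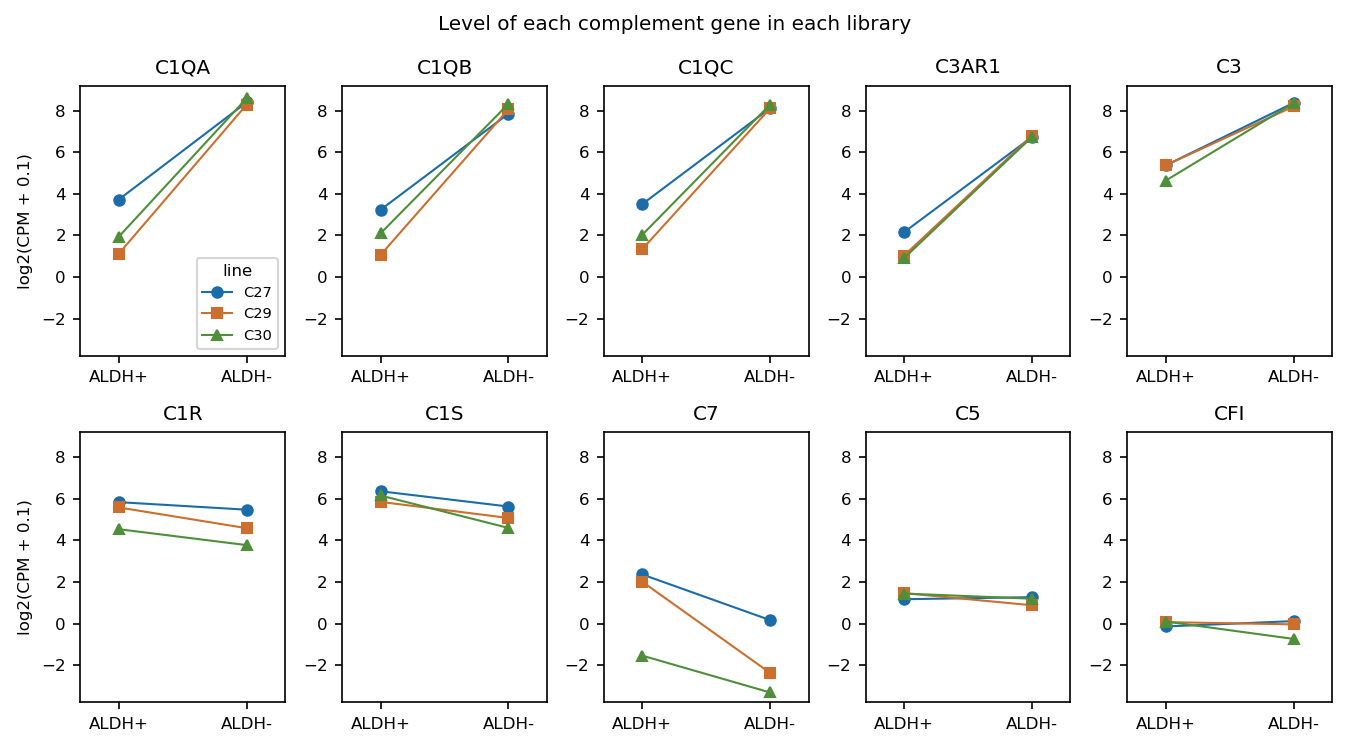
Level of each complement gene, as log2(CPM + 0.1), in the ALDH+ and ALDH- library of each line, with a segment joining both fractions of a line. The C1q genes, C3AR1 and C3 lie lower in every ALDH+ library, C1S lies higher in every ALDH+ library, and C7 spreads widely between lines.

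C1QA (ENSGALG00000021569), which encodes the A chain of C1q, had 13.2, 2.08 and 3.75 CPM in the ALDH+ libraries, against 342, 317 and 391 CPM in the ALDH- libraries. Every ALDH+ value lay far under every ALDH- value, and the ALDH+ library of C27 was the highest of its fraction. The log2 fold change was -5.78 (SE 0.71, edgeR adjusted p = 0.00289), lower in ALDH+ in all 3 lines. C1QB (ENSGALG00000004771), the B chain, had 9.33, 1.99 and 4.2 CPM in ALDH+ and 233, 270 and 323 CPM in ALDH- libraries. C1QC (ENSGALG00000029669), the C chain, had 11.3, 2.44 and 4 CPM in ALDH+ and 281, 279 and 317 CPM in ALDH- libraries. These genes showed the same order of libraries within ALDH+ as C1QA, with C27 highest and C29 lowest. Their log2 fold changes were -5.73 for C1QB (SE 0.59, adjusted p = 0.00155) and -5.62 for C1QC (SE 0.60, adjusted p = 0.00171).

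The ALDH+ library of C27 held the highest C1q levels of its fraction. Without it the log2 fold changes were -6.89 for C1QA, -6.45 for C1QB and -6.48 for C1QC, and all 3 calls were kept. Within lines, the summed C1q level in ALDH- cells was 25.3 times that in ALDH+ cells in C27, 133 times in C29 and 86.3 times in C30. Raw estimated counts behind the lowest values were 46, 44 and 54 for C1QA, C1QB and C1QC in the ALDH+ library of C29.

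The chains of C1q had similar shares of the summed level in each fraction. On the TPM scale, which divides by transcript length and so allows genes to be compared, C1QA made up 34.8, 28.2 and 27.7% of the summed C1q level in the ALDH+ libraries, and 35.7, 32.5 and 33.8% in the ALDH- libraries. C1QB made up 30.2 to 37.8% in ALDH+ and 29.8 to 34.1% in ALDH- libraries, and C1QC 34.6 to 38.9% in ALDH+ and 32.1 to 34.5% in ALDH- libraries. The summed level itself was 55.8, 8.58 and 18.5 TPM in ALDH+ and 1160, 967 and 909 TPM in ALDH- libraries. In the RefSeq gene table of the later chicken assembly GRCg7b, C1QB, C1QC and C1QA follow each other as named coding genes, between EPHB2 and EPHA8. Of these flanking genes, EPHB2, an ephrin receptor gene, stood at 10.6 to 19.1 CPM in ALDH+ and 7.99 to 16.1 CPM in ALDH- libraries (log2 0.47, adjusted p = 0.506 in edgeR). EPHA8 was too low to be tested, at 0.202 to 0.316 CPM in ALDH+ and 0.0997 to 0.833 CPM in ALDH- libraries.

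Some genes carry a C1q domain but stand outside complement. Of 20 such genes found, 9 were tested. None of these 9 was called lower, which is near the share of 5.3% called lower over all genes tested. All 9 had a log2 change above 0, against 6439 of 12811 genes tested. Without a filter on low counts it was 14 of 20. The median over the 9 was 0.85 under TMM scaling and 0.92 to 0.99 under the other count scalings. Of these, C1QTNF12, a secreted C1q and tumour necrosis factor related protein gene, was the one called, against 0.835% of all genes called higher. It stood at 31.1, 52.3 and 31.3 CPM in the ALDH+ libraries and 10.8, 14 and 8.52 CPM in the ALDH- libraries (log2 1.78, edgeR adjusted p = 0.0159). Its groups did not overlap, and its call was lost when either the C29 library of ALDH+ cells (adjusted p = 0.0545) or the C30 library of ALDH- cells (0.0597) was left out. With the line as a block, COL8A1, a short-chain collagen gene, was called as well (2.07, adjusted p = 0.0216). The block called 5.92% of all genes higher. Of the 27 names listed for this family, those found but not tested were too low, so the 9 are not the whole family.

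C3AR1 (ENSGALG00000013218), the receptor for the small C3 fragment, had 4.36, 1.94 and 1.78 CPM in the ALDH+ libraries, against 107, 112 and 107 CPM in the ALDH- libraries. The ALDH- values were almost level across lines (109 ± 3.18 CPM, SD, n = 3), and C27 was again the highest ALDH+ library. The log2 fold change was -5.32 (SE 0.41, edgeR adjusted p = 0.0011). The identity carries a doubt, since 2 entries of the GRCg7b table list C3AR1 as a synonym, a coding gene named C3AR1L and a pseudogene. No deposited ID of any gene matched that table, so which of these entries it is was not settled.

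C3 (ENSGALG00000030038), the central component, fell in ALDH+ cells by a smaller fold than the C1q genes, a difference that was not tested. It had 41.5, 41.6 and 24.9 CPM in the ALDH+ libraries, against 335, 297 and 332 CPM in the ALDH- libraries. The groups lay well apart, and within ALDH+ the C30 library was lowest. The log2 fold change was -3.16 (SE 0.28, edgeR adjusted p = 0.0011), and within lines the ALDH- level was 8.08, 7.15 and 13.3 times the ALDH+ level.

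**Figure D2:**
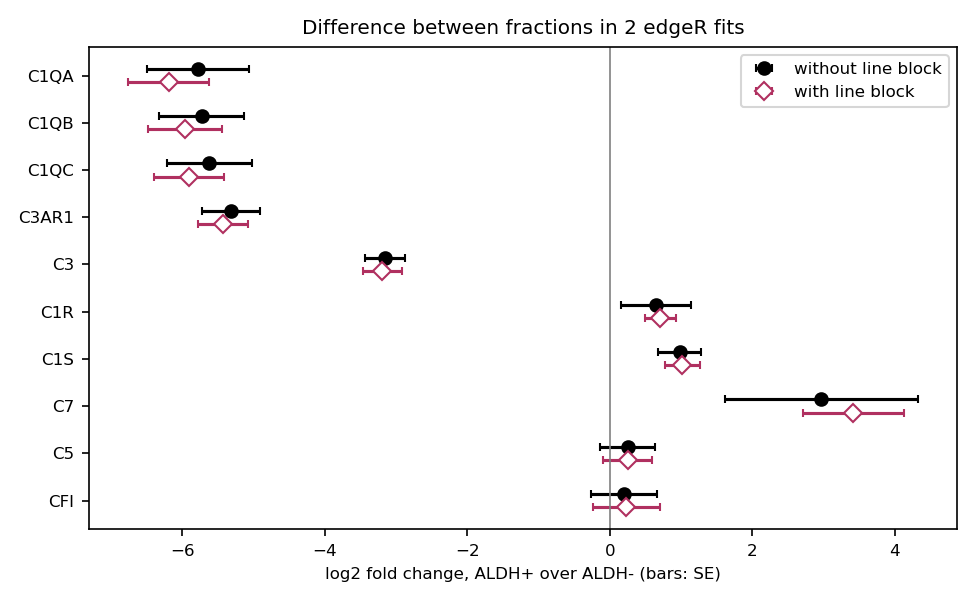
Log2 fold change of each complement gene, ALDH+ over ALDH-, from edgeR without (circles) and with (diamonds) the line as a block, with bars of 1 SE. C1QA, C1QB, C1QC and C3AR1 lie between -5.32 and -6.19 in both fits and C3 near -3.16, while C7 has the widest bar without the block.

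C3 is the member with the most annotated transcripts, 4 of the 16, and their shares varied between libraries. ENSGALT00000055337 took 83.9, 88.4 and 73.7% of the C3 counts in the ALDH+ libraries, and 56.8, 31.4 and 46.6% in the ALDH- libraries. ENSGALT00000057228 took 4.6, 9.3 and 0.4% in ALDH+ and 42.1, 18.4 and 20.2% in ALDH- libraries. ENSGALT00000049708 was split by line within the ALDH- fraction, with 0.2, 3245.6 and 2172.6 estimated counts in C27, C29 and C30, against 0, 0.9 and 0 in the ALDH+ libraries. The shortest, ENSGALT00000070812, had 141.1, 20.3 and 159.4 estimated counts in ALDH+ and 96.8, 10.3 and 37.2 in ALDH- libraries, so its groups overlapped. Counts of several transcripts of a gene are estimates by the quantifier, and their uncertainty was not analysed here. In the authors' deposited table the log2 fold changes of these transcripts were -2.3, -5.4, -12.5 and 1 in the order given (SE 0.42, 0.94, 3.48 and 0.96). Their adjusted p, in the column headed PAdj, was 0.00246, 0.000157, 1 and 1 in the same order. The headers do not give the method of this column, which stands beside a separate FDR column. A value at its upper limit is therefore not read as equal levels.

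**Figure D3:**
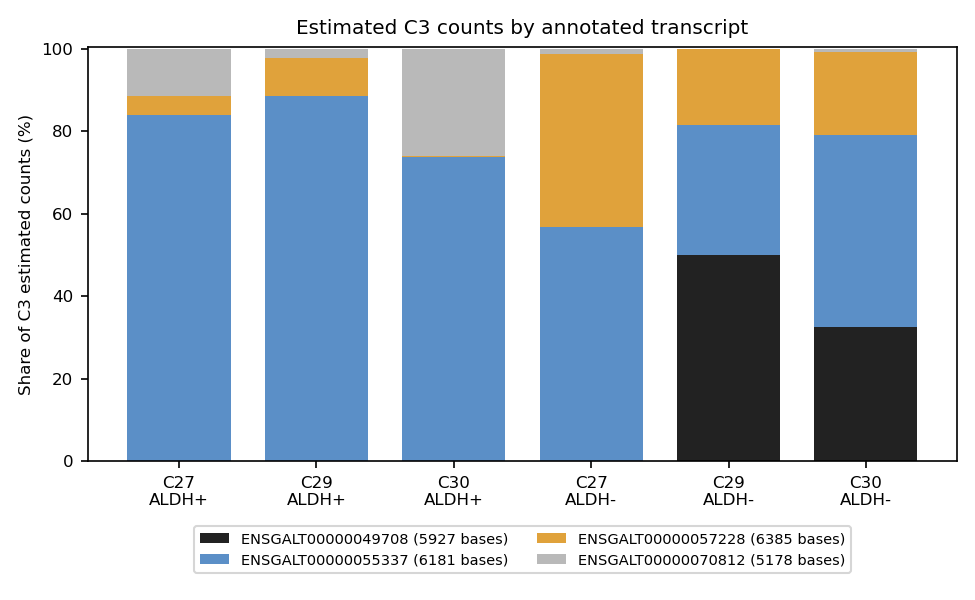
Share of the C3 estimated counts, in percent, given to each of the 4 annotated C3 transcripts in each library. ENSGALT00000055337 holds 73.7 to 88.4% in ALDH+ libraries and 31.4 to 56.8% in ALDH- libraries, and ENSGALT00000049708 appears in the ALDH- libraries of C29 and C30.

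In the authors' deposited table of transcripts, 6 of the 16 member transcripts had an adjusted p (PAdj) under 0.05, and they belonged to 5 genes. These were the single transcripts of C1QA, C1QB, C1QC and C3AR1, with log2 fold changes of -5.8, -5.7, -5.6 and -5.3 in the authors' deposited table, and 2 of C3. The share of all deposited transcripts under this rule was not taken, so the 6 of 16 is a description only. PAdj values were not set against the Benjamini-Hochberg values of the gene tests.

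The falling members were set beside the macrophage markers as a description. Of the 15 tested macrophage markers, 1 had a lower log2 change than C1QA, C1QB, C1QC or C3AR1, the scavenger receptor gene MARCO, while 11 had a lower one than C3. Per 100 CPM of summed macrophage markers, the C1q genes together had 8.05, 1.49 and 5.33 CPM in the ALDH+ libraries, and 15.5, 16.5 and 9.76 CPM in the ALDH- libraries. The ratio was lower in ALDH+ in all 3 lines, and the groups did not overlap. C3AR1 had 1.04, 0.445 and 0.793 CPM per 100 CPM of markers in ALDH+ and 1.94, 2.13 and 1.01 in ALDH- libraries, where the groups overlapped. C3 had 9.9, 9.53 and 11.1 in ALDH+ and 6.06, 5.65 and 3.14 in ALDH- libraries, higher in ALDH+ in all 3 lines. The part of the macrophage markers' fall in these results was not tested.

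**Figure D4:**
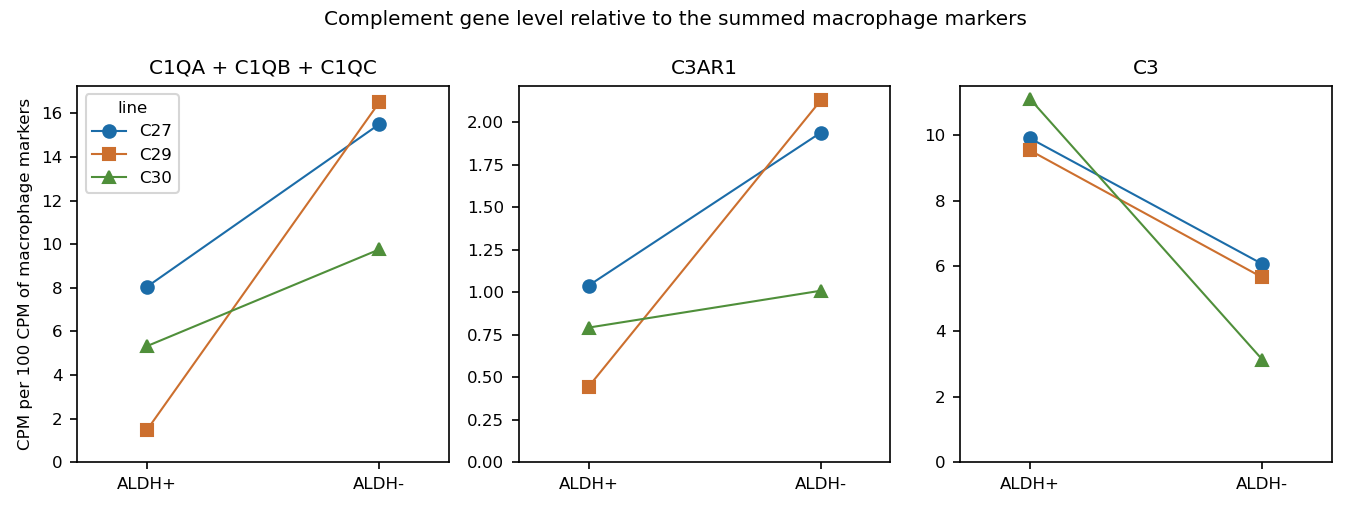
CPM of the summed C1q genes, of C3AR1 and of C3 per 100 CPM of the 15 summed macrophage markers, in the ALDH+ and ALDH- library of each line. The C1q ratio is lower in ALDH+ in each line (1.49 to 8.05 in ALDH+ and 9.76 to 16.5 in ALDH-), while the C3 ratio is higher in ALDH+ in each line (9.53 to 11.1 in ALDH+ and 3.14 to 6.06 in ALDH-).

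The genes whose pattern over the 6 libraries was nearest to these members were found among 9778 named genes with a mean of at least 1 CPM. Nearness was the root mean square difference of centred log2 CPM, a description over 6 libraries that share the fraction and line. P2RY6, a nucleotide receptor gene, was nearest to C1QA (0.51), C1QB (0.324) and C1QC (0.385). CD72AG followed for C1QA and C1QC, MARCO for C1QA and C1QB, and TREM2, a myeloid receptor gene, for C1QB and C1QC. Nearest to C3AR1 were the cytokine receptor chain gene IL2RG (0.33), RSFR (0.333) and the lysosomal gene LAPTM5 (0.358). C3 was near to other genes, HACD4 (0.172) and the heparanase gene HPSE (0.221).

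C1S and C1R, the protease genes of the C1 complex, were higher in the ALDH+ library of every line, and C1S passed in edgeR with the line block and not without it. C1S (ENSGALG00000014603) had 82.6, 57.9 and 71.7 CPM in the ALDH+ libraries, against 49.6, 33.8 and 24.2 CPM in the ALDH- libraries. All ALDH+ values lay above all ALDH- values, and the gap was widest in C30, at 2.96 times, against 1.67 in C27 and 1.71 in C29. The log2 fold change was 0.98 (SE 0.30, edgeR adjusted p = 0.116) without the line block, and with it C1S rose by 1.02 (SE 0.24, adjusted p = 0.0341). That blocked call held without C29 (1.15, adjusted p = 0.0134) and ended without C27 or C30 (adjusted p up to 0.0899). With the block and 1 line left out, few libraries remain to estimate the spread. These p-values therefore lean on the spread of other genes and are a weak check.

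C1R (ENSGALG00000014659) had 57.4, 48.1 and 23.2 CPM in the ALDH+ libraries, against 44.6, 24 and 13.6 CPM in the ALDH- libraries. The groups overlapped, since the lines were ordered C27, C29, C30 in both fractions, while ALDH+ was higher within each line, at 1.29, 2.01 and 1.71 times. The log2 fold change was 0.65 (SE 0.49, edgeR adjusted p = 0.488), and 0.71 with the line block (SE 0.22, adjusted p = 0.0811), so it did not pass in either fit. C1S and C1R follow each other in GRCg7b, between LPCAT3 and RBP5. Both neighbours had small log2 changes, -0.13 for LPCAT3 and 0.28 for RBP5, and did not pass (adjusted p = 0.8 and 0.848 in edgeR). C1S and C1R are related proteases, and reads shared between them cannot be traced in these tables.

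The protease genes were also compared with the fibroblast markers. The log2 CPM of C1S minus the median log2 CPM of the 12 fibroblast markers was -1.26, -1.73 and -1.86 in ALDH+ and -1.74, -2.52 and -2.66 in ALDH- libraries. That of C1R was -1.78, -1.99 and -3.48 in ALDH+ and -1.89, -3.01 and -3.49 in ALDH- libraries. Relative to these markers C1S stayed higher in ALDH+ in each line, whereas C1R in C30 was level. The part of the fibroblast markers in these differences was not tested. By the same measure of nearness, C1S lay closest to RECK (0.069), SEC23A (0.07) and RHBDF1 (0.071), and C1R to RGMA (0.083), ASAP3 (0.11) and the keratin gene KRT7 (0.119).

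C7 (ENSGALG00000014835), a component of the terminal pore, was low and uneven. It had 150, 87 and 6 estimated counts in the ALDH+ libraries, against 27, 2 and 0 in the ALDH- libraries. These were 5.04, 3.93 and 0.242 CPM in ALDH+ and 1.02, 0.0918 and 0 CPM in ALDH- libraries. Each line had more C7 in its ALDH+ library, but the groups overlapped because the ALDH+ library of C30 was under the ALDH- library of C27. A count of 0 in the ALDH- library of C30 allows up to 3 counts, or 0.124 CPM by library total, and this limit covers counting error only. The log2 fold change was 2.97 (SE 1.35, edgeR adjusted p = 0.262) without the line block, and C7 rose by 3.42 with it (SE 0.71, adjusted p = 0.0237). Without the block, leaving out the C27 library of ALDH- cells moved the log2 fold change to 5.92 (adjusted p = 0.0688). The blocked call held without C29 (2.50, adjusted p = 0.0204) and without C30 (3.30, adjusted p = 0.0109), and without C27 the gene was too low to be tested. As for C1S, few libraries remain in these fits, so they are a weak check. In GRCg7b the gene next to C7 is C6, whose product joins the pore before it, and C6 had 0.0336 CPM in the ALDH+ library of C27 and 0 in the other 5 libraries. Nearest to C7 were CCN3 (0.566), CRISPLD2 (0.606) and the water channel gene AQP1 (0.74).

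C5 (ENSGALG00000001565), which opens the terminal pathway, had 2.15, 2.66 and 2.62 CPM in the ALDH+ libraries, against 2.31, 1.74 and 2.19 CPM in the ALDH- libraries. The groups overlapped, and the log2 fold change was 0.25 (SE 0.38, edgeR adjusted p = 0.748). CFI (ENSGALG00000012126), the protease that inactivates the C3 opsonin, had 24, 21 and 24 estimated counts in ALDH+ and 26, 19 and 10 in ALDH- libraries, or 0.806, 0.948 and 0.969 CPM in ALDH+ and 0.984, 0.872 and 0.498 CPM in ALDH- libraries. Its groups overlapped too, and the log2 fold change was 0.20 (SE 0.46, edgeR adjusted p = 0.839). No difference of C5 or CFI was detected. Of the 3 C5 transcripts, ENSGALT00000066635 had 47.5, 21.7 and 29.9 estimated counts in ALDH+ and 28.6, 0 and 3.3 in ALDH- libraries, more in ALDH+ in each line. ENSGALT00000054489 had 0 estimated counts in each ALDH+ library and 0, 8.0 and 8.9 in ALDH- libraries, and ENSGALT00000002379 had 16.5, 37.3 and 35.1 in ALDH+ and 32.4, 30 and 31.8 in ALDH- libraries. In the authors' deposited table each of these C5 transcripts had an adjusted p of 1 in the PAdj column, which is not read as equal levels. Nearest in pattern were HIP1R (0.058), LTN1 (0.086) and SETD5 (0.086) for C5, and MAB21L3 (0.082), BFAR (0.104) and ANKRD26 (0.107) for CFI.

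The order of the members by level therefore differed between the fractions. On the length-scaled TPM scale, ALDH+ cells had C1S at 36.7 ± 10.5 and C1R at 27 ± 12.4 TPM as the highest (mean and SD, n = 3). C1QC (9.76 ± 8.61), C1QA (8.98 ± 9.13), C3 (8.97 ± 2.45) and C1QB (8.88 ± 7.19 TPM) came next in ALDH+ cells and lay within each other's spread. C3AR1 (2.41 ± 1.54), C7 (1.89 ± 1.64), CFI (0.711 ± 0.0651) and C5 (0.638 ± 0.0574 TPM) were lowest in ALDH+ cells. In ALDH- cells the C1q genes led, with C1QA at 345 ± 59.4, C1QC at 339 ± 55.4 and C1QB at 328 ± 18.2 TPM, again within each other's spread. C3AR1 (70.4 ± 14.8) and C3 (58.8 ± 12.6 TPM) followed, with overlapping spreads. C1S (14.4 ± 7.86) and C1R (13.8 ± 10.3 TPM) came after them in ALDH- cells, and CFI (0.481 ± 0.235), C5 (0.426 ± 0.101) and C7 (0.202 ± 0.314 TPM) were lowest. Together the 10 members took 0.0254, 0.0164 and 0.0148% of gene counts in the ALDH+ libraries, and 0.146, 0.127 and 0.126% in the ALDH- libraries.

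Lines were compared by an F test in edgeR that held the fraction fixed. It called 0 of the 10 members, against 0.367% of all genes tested, and 2 members had an unadjusted p under 0.05. These were C1R, with C29 at -0.58 and C30 at -1.52 relative to C27 on the log2 scale (adjusted p = 0.102), and C7, with C29 at -1.33 and C30 at -5.05 (adjusted p = 0.112). The lowest levels of both genes were in C30 in each fraction. Scaled by library size only, the line test called both C1R and C7, and it called up to 5 members when 1 library was left out, the most without the C29 library of ALDH- cells.

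Other complement genes were read from a wider list of 52 names, of which 30 were found, 28 had counts and 21 were tested. Of these 21, 1 rose and 5 fell in ALDH+ cells in edgeR without the block, and 2 rose and 5 fell with it. Over all genes tested, 0.835% rose and 5.3% fell without the block, and 5.92% rose and 7.6% fell with it. The list median was -0.27 on the log2 scale, against 0.00 over all genes tested. On log2 TPM, where 19 of the list were tested, it was 0.15, against 0.36 over all genes. For the genes that passed these filters it was thus below the median of all genes on both scales. Without a low-count filter, 28 of the list had a median of 0.09, against 0.07 over all genes, and DESeq2 gave the same values. On log2 TPM without a filter the list median was 0.07, against 0.23 over all genes. In edgeR without the C30 library of ALDH- cells the list median was 0.05, against 0.04 over all genes.

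**Figure D5:**
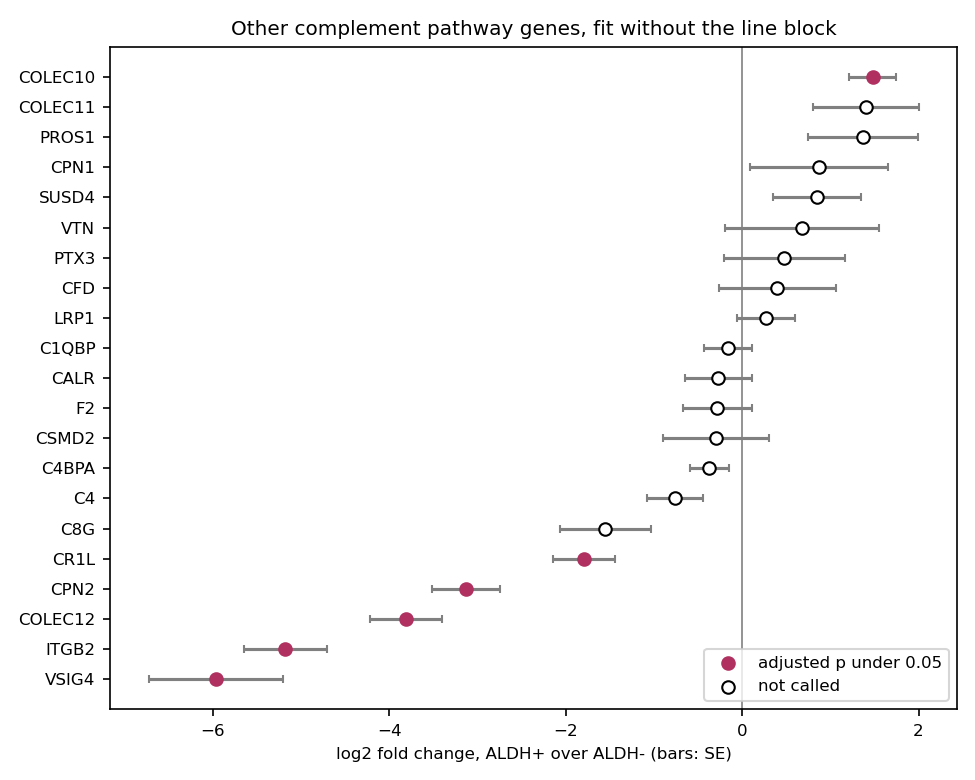
Log2 fold change, ALDH+ over ALDH-, of the 21 tested genes of the wider complement list in edgeR without the line block, with bars of 1 SE. Filled points passed at an adjusted p under 0.05, namely COLEC10 above 0 and CR1L, CPN2, COLEC12, ITGB2 and VSIG4 below 0.

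Among receptors, VSIG4, a macrophage receptor for C3 fragments in mammals, had 9.97, 2.75 and 10.6 CPM in the ALDH+ libraries, against 225, 349 and 890 CPM in the ALDH- libraries. It fell by 5.97 on the log2 scale (SE 0.76, edgeR adjusted p = 0.00322). ITGB2, the beta chain of the leukocyte integrins that include complement receptors, had 7.42, 7.36 and 3.63 CPM in ALDH+ and 162, 165 and 342 CPM in ALDH- libraries, and fell by 5.18 (SE 0.47, adjusted p = 0.0011). CR1L, named for its likeness to complement receptor 1, had 21.1, 28 and 11.3 CPM in ALDH+ and 75.2, 56 and 77.3 CPM in ALDH- libraries, and fell by 1.79 (SE 0.35, adjusted p = 0.0222). None of these genes had overlapping groups. The call of CR1L was lost when either the C27 library of ALDH+ cells (adjusted p = 0.0805) or the C30 library of ALDH- cells (0.0955) was left out. The genes C1QBP and CALR, whose products bind C1q, had log2 changes of -0.16 and -0.27 and did not pass.

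Among the genes of lectin-type recognition, the 2 called collectins went opposite ways. COLEC10, a soluble collectin that can start the lectin pathway in mammals, had 69.9, 47.6 and 68.4 CPM in the ALDH+ libraries, against 27.7, 18.9 and 20.1 CPM in the ALDH- libraries. It rose by 1.48 (SE 0.27, edgeR adjusted p = 0.016), with no overlap. That call was lost when the C27 library of ALDH+ cells (adjusted p = 0.0681), or the C29 (0.0742) or C30 library (0.0725) of ALDH- cells, was left out. COLEC12, a membrane-bound scavenger collectin, had 11.7, 5.74 and 5.01 CPM in ALDH+ and 79.8, 98.1 and 138 CPM in ALDH- libraries, and fell by 3.81 (SE 0.41, adjusted p = 0.00178). The component gene C4 stood at 37.8 ± 13.3 CPM in ALDH+ and 64 ± 15.7 CPM in ALDH- cells (n = 3; log2 -0.76, adjusted p = 0.227 in edgeR). MBL2, MASP1 and MASP2 had up to 0.47 CPM in ALDH+ and 0.303 CPM in ALDH- libraries and were not tested.

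Among regulators, CPN2, a subunit of the carboxypeptidase that inactivates the small complement peptides, had 0.906, 1.31 and 1.78 CPM in ALDH+ and 11.1, 10.2 and 13.7 CPM in ALDH- libraries. It fell by 3.13 (SE 0.39, edgeR adjusted p = 0.00298), with no overlap. CPN1, the catalytic subunit, stood at 2.52, 4.47 and 0.929 CPM in ALDH+ and 2.12, 1.88 and 0.299 CPM in ALDH- libraries (log2 0.87, adjusted p = 0.57). PROS1, protein S, which in plasma binds the C4 binding protein, had 1148, 811 and 491 CPM in ALDH+ and 629, 205 and 116 CPM in ALDH- libraries. The ALDH+ library was higher in each line while the groups overlapped, and PROS1 was called with the line block (1.65, adjusted p = 0.0169) and not without it (1.37, adjusted p = 0.259). Without the block, it was called when the C27 library of ALDH- cells was left out (2.40, adjusted p = 0.0248), and its log2 change was 1.03 (adjusted p = 0.526) when that of C30 was. In the terminal pathway C8G had a log2 change of -1.55 (edgeR adjusted p = 0.14), and C8B had up to 0.0807 CPM in ALDH+ and 0.227 CPM in ALDH- libraries. C8A had 0 counts in all 6 libraries, which allows up to 3 counts, or 0.112 to 0.135 CPM by library total without TMM factors.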

How the data were processed

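RNA-seq of 3 ALDH+ and 3 ALDH- libraries was analysed, with 125 base paired-end reads per the labels. The submitters' processing notes name FastQC, Trimmomatic, HISAT2, kallisto, DESeq2 and GRCg6a, without versions. Per transcript, estimated counts (expected counts) and TPM were deposited. The authors' comparison table holds a signal per library (count over size factor), a ratio, log2 fold changes with SE, scores and p-values, and transcript lengths (other values) are given per the file headers.

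Estimated counts were summed over 28756 transcripts to 16963 gene IDs and rounded, leaving out 319 transcripts without a gene ID (0.28 to 0.33% of counts). Deposited IDs matched 0 entries of the GRCg7b table, so no positions are given. Genes were tested in edgeR 4.0.16 (R 4.3.3; quasi-likelihood, TMM, filterByExpr with a minimum count of 10 and total of 15), Benjamini-Hochberg adjusted p under 0.05 over all genes, two-sided, without a block. With 3 libraries a side the smallest exact two-sided permutation p is 0.1. Both fractions were sorted from the same line per the labels, so the blocked fit is printed where it changes the call of a complement gene. Of the nearest genes, RECK, SEC23A, RHBDF1, CRISPLD2 and AQP1 passed in edgeR only with the block, as did the fibroblast marker PDGFRA. Same-line deviations from group means correlated at 0.66 (C27), 0.17 (C29) and 0.49 (C30). SE come from the F statistic. The scripts were tested on simulated data. Alternatives used DESeq2 1.42.0, limma 3.58.1 (log2 TPM, pseudocounts 1 and 0.1), other scalings and filters, and left-out libraries. The labels name the lines separately, so each counted as a replicate, and p-values measure the spread between these libraries. The members, gene lists and tests were chosen with earlier results of these data known. The text names all members, every wider complement gene called with or without the block, the 3 nearest genes per member (1 is not reported here) and defining markers of other cells, while CDH5, PAX5, PECAM1, KRT7, KRT18, WT1, APOA1, TTR, EPHB2, EPHA8, LPCAT3, RBP5, C6 and other uncalled genes of the lists were chosen after their values were seen.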

Additional observations from a re-analysis of the deposited data

Results flagged for a closer look

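For 2 of the 10 members the lines did not move the same way between fractions, and the difference between lines was not tested, since each line has 1 library per fraction. C5 differed by -0.10 in C27, 0.59 in C29 and 0.25 in C30 on the log2 CPM scale, ALDH+ minus ALDH-. CFI differed by -0.26 in C27, 0.11 in C29 and 0.86 in C30. Both genes were at low levels, with 38 to 65 estimated counts per library for C5 and 10 to 26 for CFI.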

How the results depend on the processing

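C1QA, C1QB, C1QC, C3 and C3AR1 stayed lower and called under all 19 alternatives, and C1R was not called under any. C5 stayed uncalled with a positive log2 change under each of its 17 alternatives. CFI turned to -0.09 (adjusted p = 0.949) with the replicate block and without C30. The median of all genes moved from 0.00 to 0.12 (upper quartile), 0.18 (library size only), and 0.36 and 0.41 on log2 TPM with pseudocounts 1 and 0.1. Members higher numbered 2 with the replicate block and 1 in DESeq2 (C1S, 1.02, adjusted p = 0.0395), and 0 to 1 with 1 library left out, where C1S was called on leaving out the C27 library of ALDH- cells (1.33, adjusted p = 0.0335). With the block and 1 line left out, an alternative chosen after seeing the data, they numbered 0 to 2 (2 without C29, 1 without C30). Such fits leave few libraries to estimate the spread, so their calls are a weak check. Wider list genes higher numbered 2 with the block, 0 to 2 with 1 library left out and 2 in each fit with the block and 1 line left out.

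Over all genes, 786 were called (107 higher, 679 lower). With the block 1732 were called (758 higher), and DESeq2 called 1655 (626 higher, 1029 lower). On log2 TPM 268 were higher with pseudocount 1 and 238 with 0.1, and 432 were lower without a filter. The share of calls higher in ALDH+ was 13.6%, against 43.8% with the block, 37.8% in DESeq2 and 34.7% on log2 TPM. With 1 library left out, 443 to 1123 were called, 13 to 370 higher and 425 to 753 lower, and each left-out library moved the higher count by over 1.5 times (13 without the C29 or C30 library of ALDH- cells, 370 without that of C27). The total was lowest without the ALDH- library of C30 (443) or the ALDH+ library of C29 (475) or C27 (502). With the block and 1 line left out, 1010 to 2354 were called (1242 without C30), 311 to 1047 higher (427 without C30) and 699 to 1307 lower. The line test called 47 genes, 269 without a low-count filter and 419 (2 members) with library size only. With 1 library left out it called 45 to 1985 genes and 0 to 5 members, the most without the ALDH- library of C29. The causes were not tested. The summed C1q change was -5.72 as the log2 of group means in CPM.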
